A study of Mus musculus with 4 samples.

Results

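Probes for the paralogues of the miR-17-92 cluster were followed in mouse activated T cells with and without Foxp3. The paralogues are encoded by the miR-106a cluster and the miR-106b-25 cluster. Their probes were chosen by ID alone, as those that carry, after the array's prefix, the number of miR-106a, miR-106b, miR-93, miR-25, miR-20b or miR-18b. Of these 6 numbers, 4 had a probe (1org-106a, 1org-106b, 1org-93 and 2org-25) and 2 (those of miR-20b and miR-18b) matched none, which gave 4 of 171 miRNA probes. The array annotation listed 1org-93 as Mir93 and 2org-25 as Mir25. It listed neither 1org-106a nor 1org-106b, so these keep their IDs and are tied to a miRNA by number only.

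Foxp3 is the lineage factor of regulatory T cells, which restrain immune responses. FoxP3-transduced cells were set against activated T cells that carried a control vector, at 96 h and at 72 h. Both RNAs of a time point were hybridised to 2 arrays of 2 colours with the dyes Cy5 and Cy3 exchanged, 4 arrays in all. The labels give neither the vector nor the mouse strain, nor whether the time points were separate cultures. Each time point was therefore counted as 1 replicate. The p-values over both time points measure only the spread between them, pooled over all miRNA probes, and that spread may be technical. The table holds ratios and no level per sample, so the labelled cell type could not be checked against marker levels, and fewer cells carrying a miRNA cannot be told apart from less of it per cell.

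Mature miRNAs guide Argonaute proteins to messenger RNAs that pair with the seed, the bases near the miRNA's 5′ end, and lower the output of those messengers. The miR-106b-25 cluster lies in an intron of Mcm7, a subunit of the helicase that opens DNA for replication, and is transcribed with it in dividing cells under E2F factors. miR-106b and miR-93 are known, largely from human cells, to repress the cell cycle inhibitor Cdkn1a, and miR-25 the death-promoting Bcl2l11. In lymphocytes the related miR-17-92 cluster promotes proliferation and survival, in part by repressing Bcl2l11.

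The sequences show which of the measured paralogues share a seed. All are mature mouse sequences from RefSeq (GRCm38.p6), written 5′ to 3′, with the seed (bases 2 to 8) in capitals. The first 4 carry the numbers of the measured probes, and the last 4 are relatives with which they share a seed.
miR-106a-5p: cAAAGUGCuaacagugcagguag
miR-106b-5p: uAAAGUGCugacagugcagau
miR-93-5p: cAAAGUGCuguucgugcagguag
miR-25-3p: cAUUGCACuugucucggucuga
miR-20b-5p: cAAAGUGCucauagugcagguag
miR-17-5p: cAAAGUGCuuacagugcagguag
miR-20a-5p: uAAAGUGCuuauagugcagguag
miR-92a-3p: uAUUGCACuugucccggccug

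miR-106a, miR-106b and miR-93 share the seed AAAGUGC with miR-20b, miR-17 and miR-20a, whereas miR-25 has the seed AUUGCAC of miR-92a. The arms shown are those that the plain numbers usually stand for, since the probe IDs name none. Aligned from the 5′ end without gaps, miR-106a-5p differed from miR-17-5p at 1 of 23 bases (A10U, counted from the 5′ end of miR-106a-5p). It differed from miR-106b-5p at 3 of 21 bases and from miR-93-5p at 4 of 23. miR-25-3p differed from miR-92a-3p at 3 of 21. Probe sequences were not used here, and how far such close relatives shared signal on the array was not tested.

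The 2 paralogous clusters lie on different chromosomes. miR-106b-5p is at chr5:138165787-138165807, miR-93-5p at chr5:138165574-138165596 and miR-25-3p at chr5:138165332-138165353, all on the minus strand. Their 3 hairpins span 498 bases and fall within the annotated bounds of Mcm7. miR-106a-5p is at chrX:52742541-52742563, also on the minus strand, in a run of 5 hairpins that spans 730 bases and lies within no annotated protein-coding gene. miR-20b and miR-18b, the numbers without a probe, belong to that run, so 1org-106a alone stands for it here. The 6 hairpins of miR-17-92 lie on chromosome 14.

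In the deposited log ratios, the 4 probes covered less than the interquartile range of all miRNA probes on every array. At 96 h with Foxp3 in Cy5 they were at 0.671 (1org-106a), 0.648 (1org-106b), 0.315 (1org-93) and -0.045 (2org-25). At 96 h with Foxp3 in Cy3 they were at 0.871, 0.803, 0.849 and 0.856 in the same probe order. These last 4 values covered 0.068, where that interquartile range was 1.36. At 72 h with Foxp3 in Cy5 they were at -0.215, -0.184, -0.344 and 0.212, and with Foxp3 in Cy3 at -0.060, 0.101, 0.237 and 0.859. At 72 h, 2org-25 stood above the other 3 on both arrays.

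Their place among the miRNA probes of each array does not depend on centring. At 96 h with Foxp3 in Cy5 they were in the lower part, above 7.65% (2org-25) to 24.7% (1org-106a) of the other probes. At 96 h with Foxp3 in Cy3 they were in the upper part, above 74.7% (1org-106b) to 79.4% (1org-106a). At 72 h they were in the upper part on both arrays, above 62.4% (1org-93) to 86.5% (2org-25) with Foxp3 in Cy5 and above 72.9% (1org-106a) to 95.3% (2org-25) with Foxp3 in Cy3. Exchanging the dyes thus put the 4 probes on the other side of the array median at 96 h and left them on the same side at 72 h.

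**Figure D1:**
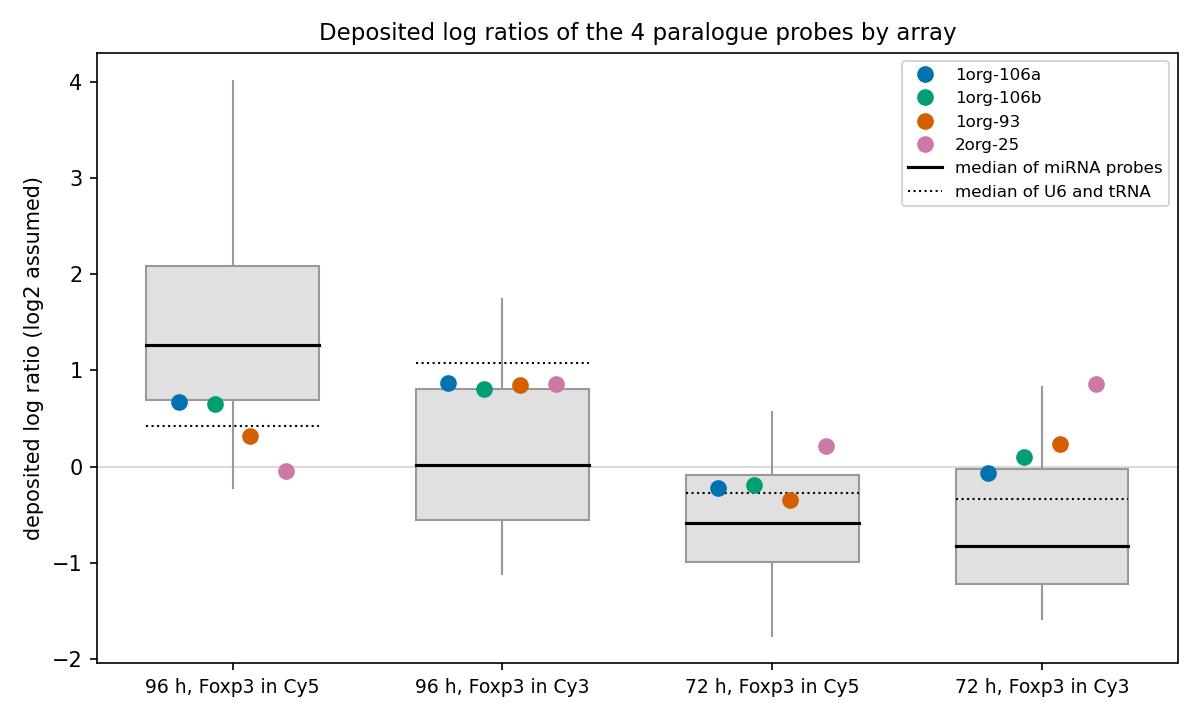
Deposited log ratios (vertical axis, log2 assumed) of the 4 probes (coloured points) on the 4 arrays. Boxes span the quartiles of the 171 miRNA probes, whiskers run between their 5th and 95th percentiles, solid lines mark their medians and dotted lines the median of U6 and tRNA controls. The points lie below the miRNA median at 96 h with Foxp3 in Cy5 and above it on the other 3 arrays.

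The sources used here do not give the direction of the ratios. Each was read as Cy5 over Cy3, since Cy5 is channel 2 in the labels of every array, and the sign was turned where Foxp3 was in Cy3. A positive turned value thus stands for a level likely higher with Foxp3, likely meaning only this reading. Across probes, which share an array and are no replicates, Pearson's r between paired arrays before turning was -0.12 for 96 h and 0.66 for 72 h, so the data did not settle it. At 96 h the miRNA medians were 1.27 (Foxp3 in Cy5), far from the others, and 0.02 (Cy3), and at 72 h they were -0.59 (Cy5) and -0.83 (Cy3). Folds below assume log base 2.

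In this reading all 4 probes averaged below 0 at both time points, as deposited and centred on the miRNA median, though 3 of them lay above 0 at 96 h when centred on U6 and tRNA. 2org-25, the member with the miR-92a seed, was lowest at both, with means of -0.45 at 96 h and -0.32 at 72 h. At 96 h its turned values were -0.045 (Foxp3 in Cy5) and -0.856 (Cy3), and at 72 h they were 0.212 (Cy5) and -0.859 (Cy3), so it lay clearly below 0 with Foxp3 in Cy3 only. 1org-93 averaged -0.27 at 96 h, from 0.315 and -0.849, and -0.29 at 72 h, from -0.344 and -0.237. It had 1 sign at 72 h and opposite signs at 96 h.

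1org-106a and 1org-106b lay nearest to 0. 1org-106b, whose miRNA shares the Mcm7 intron with miR-93 and miR-25, averaged -0.0775 at 96 h, from 0.648 and -0.803, and -0.14 at 72 h, from -0.184 and -0.101. 1org-106a, from the X-linked cluster, averaged -0.10 at 96 h, from 0.671 and -0.871, and -0.0775 at 72 h, from -0.215 and 0.060. Both had 96 h arrays further apart than their 72 h arrays.

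Of the 4 probes, 0 had 1 sign on all 4 arrays, against 7.60% of all miRNA probes. Both arrays of a time point lay below 0 for 1 of 4 at 96 h (2org-25; 8.77% of all miRNA probes) and for 2 of 4 at 72 h (1org-106b and 1org-93; 15.2%). In the other reading, with the values taken as already turned, both 96 h arrays lay above 0 for 3 of 4 (all but 2org-25; 43.3%), and both 72 h arrays above 0 for 1, 2org-25 (8.19%), and below 0 for 1, 1org-106a (63.2%). A mean past 1.5-fold with 1 sign on both arrays was reached by 0 of 4 at 96 h and 0 of 4 at 72 h, against 51.5% and 7.60% of all miRNA probes. On the lower side alone the 96 h share of all miRNA probes was 5.26%. A time point is 1 replicate, so these counts come with no test. The 96 h count rested on both arrays, as 4 of 4 were past 1.5-fold lower on the array with Foxp3 in Cy3 alone (32.7% of all miRNA probes), and 2 of 4, 1org-106a and 1org-106b, past it higher on the array with Foxp3 in Cy5 alone (76.6%). At 72 h, 1 of 4, 2org-25, was past it lower on the array with Foxp3 in Cy3 alone (11.1%).

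Set against the median miRNA probe of each array, and in the same reading, all 4 probes lay lower with Foxp3 on both 96 h arrays. Centring on that median lowered every turned mean by 0.623 at 96 h and by 0.119 at 72 h. Centred, 2org-25 was at -1.31 and -0.836 at 96 h (mean -1.07, 2.10-fold lower). 1org-93 was at -0.951 and -0.829 (mean -0.89, 1.85-fold lower). 1org-106a was at -0.595 and -0.851 (mean -0.72, 1.65-fold lower), and 1org-106b at -0.618 and -0.783 (mean -0.70, 1.63-fold lower). Thus 4 of 4 passed 1.5-fold lower at 96 h, where 25.1% of all miRNA probes did, and 4 of 4 lay below 0 on both arrays, where 33.9% did.

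In the same reading the 72 h arrays differed in sign. Centred, the 4 probes were between 0.244 and 0.800 with Foxp3 in Cy5 and between -1.69 and -0.766 with Foxp3 in Cy3, so 0 of 4 had 1 sign, against 15.8% of all miRNA probes. 2org-25 was the extreme on both, at 0.800 and -1.69. The centred 72 h means ran from -0.44 (2org-25) to -0.20 (1org-106a) and are averages of values of opposite sign. Taken as already turned, the time points change places: centred, 4 of 4 then lay above 0 on both 72 h arrays, where 41.5% of all miRNA probes did, and 0 of 4 had 1 sign on both 96 h arrays, where 31% did.

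Set against the U6 and tRNA controls instead, the 96 h direction was mixed. This centring raised the 96 h turned means by 0.327 and lowered those of 72 h by 0.036. At 96 h 1org-106a was then at 0.23, 1org-106b at 0.25 and 1org-93 at 0.060, while 2org-25 was at -0.12. At 72 h all 4 means lay below 0, between -0.36 and -0.11, as did those of 81 of the 171 miRNA probes. Both 72 h arrays lay below 0 for 1 of 4, 1org-93 (10.5% of all miRNA probes). The other 72 h means are averages of values of opposite sign. At 96 h 0 of 4 passed 1.5-fold, where 65.5% of all miRNA probes did, nearly all of them higher.

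**Figure D2:**
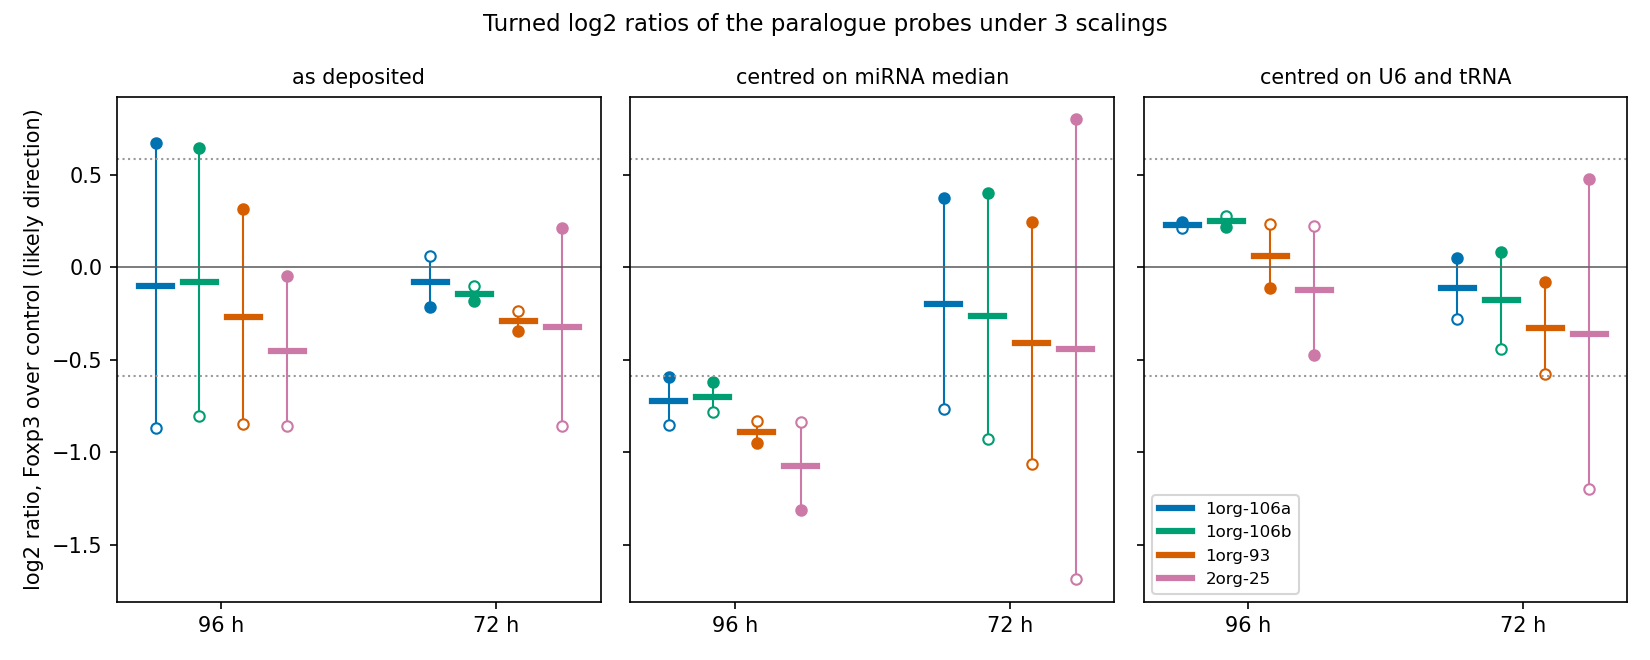
Turned log2 ratios of Foxp3 over control in the likely direction (vertical axis) of the 4 probes at 96 h and 72 h under 3 scalings. Filled points are arrays with Foxp3 in Cy5, open points those with Foxp3 in Cy3, thick bars their means, and dotted lines mark 1.5-fold. Both 96 h arrays lie below 0 for all 4 probes only after centring on the miRNA median.

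Over both time points, the means were -0.39 ± 0.090 for 2org-25, -0.28 ± 0.017 for 1org-93, -0.11 ± 0.046 for 1org-106b and -0.089 ± 0.016 for 1org-106a (log2, SD between time points, n = 2). As folds these were 1.31, 1.21, 1.08 and 1.06-fold lower in the same order. These SDs leave out the larger gaps between the arrays of a time point, which were averaged first. Among the 170 other miRNA probes, 16 had a lower mean than 2org-25, 25 than 1org-93, 30 than 1org-106b and 31 than 1org-106a. Centring cannot change this order, as it shifts all probes of a time point alike, but the other reading of direction does: 140 of the 170 then lie lower than 2org-25, 126 than 1org-106b, 123 than 1org-106a and 112 than 1org-93.

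None of the 4 passed the limma test fitted over the 171 miRNA probes with Benjamini-Hochberg adjustment. Its adjusted p was 0.630 for 2org-25, 0.699 for 1org-93, 0.915 for 1org-106b and 0.937 for 1org-106a. The fit called 0% of all miRNA probes, and 9.36% had an unadjusted limma p under 0.05, 0 of the 4 probes among them. The 95% interval for 2org-25 ran from -1.33 to 0.56 and that for 1org-106a from -1.03 to 0.86, so the fit could not tell changes of nearly 2-fold from none. Centred on the miRNA median the means were -0.76 for 2org-25, -0.65 for 1org-93, -0.48 for 1org-106b and -0.46 for 1org-106a. Limma then called 1.17% of all miRNA probes and again 0 of the 4, with adjusted p between 0.305 (2org-25) and 0.694 (1org-106a). An unadjusted limma p under 0.05 on the lower side was held by 1 of the 4, 2org-25 at 0.0464, and by 10.5% of all miRNA probes.

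A single array set the sign of 3 of the 4 means as deposited. Leaving out 96 h with Foxp3 in Cy3, they were 0.30 for 1org-106a, 0.25 for 1org-106b and 0.012 for 1org-93, and -0.18 for 2org-25. Leaving out 96 h with Foxp3 in Cy5, they were -0.47 for 1org-106a, -0.47 for 1org-106b, -0.57 for 1org-93 and -0.59 for 2org-25. Leaving out 72 h with Foxp3 in Cy5, the 2org-25 mean was -0.65, the lowest that leaving out 1 array gave for any of the 4 probes. Its 72 h value then rested on 1 array, at -0.859 with Foxp3 in Cy3, so the dyes were not balanced. Leaving out 72 h with Foxp3 in Cy3, the 2org-25 mean was -0.12.

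The time points gave like averages. The 96 h minus 72 h difference was -0.127 for 2org-25, -0.0225 for 1org-106a, 0.0235 for 1org-93 and 0.065 for 1org-106b on the log2 scale. A difference past 1.5-fold with no overlap of the arrays was shown by 0 of 4, against 7.02% of all miRNA probes. Without 96 h with Foxp3 in Cy3 it was shown, higher at 96 h, by 3 of 4, against 68.4% of all miRNA probes. Without 96 h with Foxp3 in Cy5 it was shown, lower at 96 h, by 2 of 4 against 28.1%, and without 72 h with Foxp3 in Cy3, also lower, by 1 of 4 against 3.51%. Without 72 h with Foxp3 in Cy5 the count was 0, against 12.9%. The limma term for the difference was fitted over the 4 arrays, so its error is the technical spread between dye orientations of the same RNAs and not that between cultures. It gave an adjusted p of 0.991 for each, with a standard error of 1.56, and called 0% of all miRNA probes, with 0 at an unadjusted limma p under 0.05. Centred on the miRNA median, the differences ran from -0.63 (2org-25) to -0.44 (1org-106b), all lower at 96 h, with an adjusted p of 0.981 each. Centred on U6 and tRNA they ran the other way, from 0.24 (2org-25) to 0.43 (1org-106b), all higher at 96 h.

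**Figure D3:**
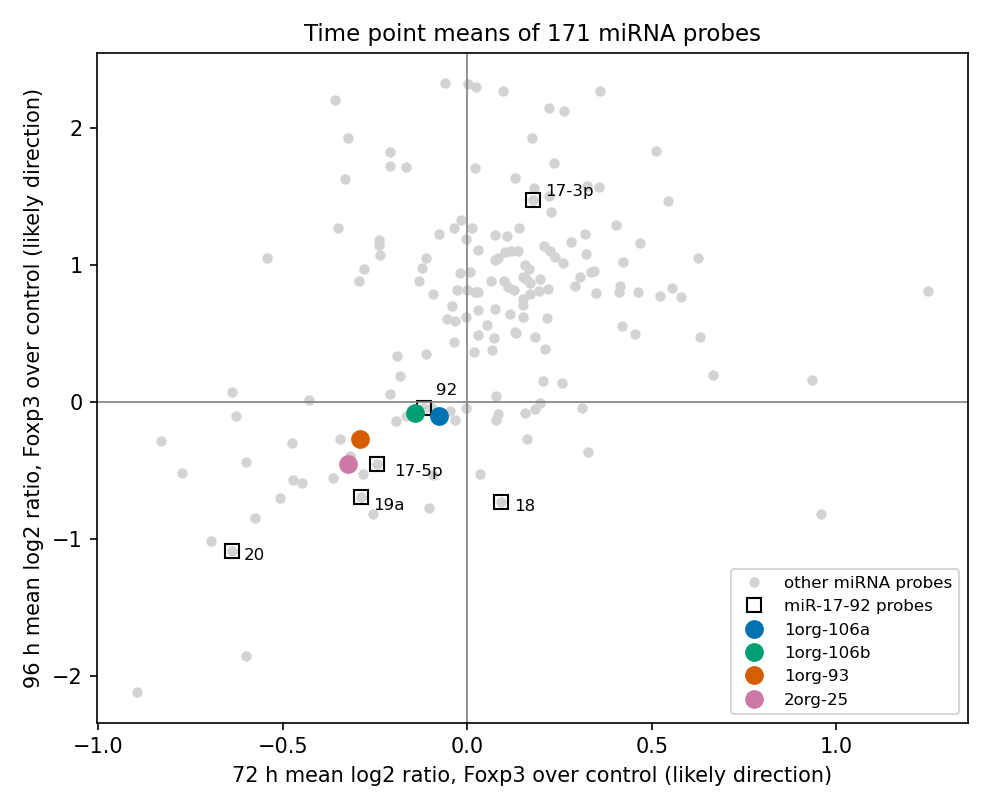
Mean turned log2 ratios of Foxp3 over control in the likely direction at 72 h (horizontal axis) and 96 h (vertical axis), as deposited, for the 171 miRNA probes. Coloured points are the 4 paralogue probes and squares the 6 miR-17-92 probes, named by their number. All 4 paralogue probes lie below 0 on both axes as deposited (3 lie above 0 at 96 h centred on U6 and tRNA), while 17-3p lies at 1.47 at 96 h.

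If the deposited values had already been turned to Foxp3 over control, the means over both time points would lie above 0. They would be 0.47 for 2org-25, 0.34 for 1org-106b, 0.32 for 1org-106a and 0.26 for 1org-93. At 96 h 1org-106a would be at 0.77 and 1org-106b at 0.73, the 2 of 4 past 1.5-fold higher, where 33.9% of all miRNA probes were. At 72 h the 4 would run from -0.14 (1org-106a) to 0.54 (2org-25). A difference past 1.5-fold without overlap, higher at 96 h, would hold for 3 of 4 (all but 2org-25), where it holds for 67.8%. Limma would call 1.75% of all miRNA probes and 0 of the 4, with an adjusted p of 0.998 and an unadjusted p above 0.05 for each of the 4. Centred on the miRNA median as well, 3 of 4 (all but 1org-106a) would be past 1.5-fold higher at 72 h, where 29.8% of all miRNA probes were.

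The probes of the miR-17-92 cluster, a list chosen with earlier results known, gave the frame for these values. Of the 4 paralogue probes all lay below 0 at both time points, and of the 6 miR-17-92 probes 4 did, against 19.3% of all miRNA probes. The median of the means over both time points was -0.19 for the paralogues, -0.33 for miR-17-92 and 0.45 for all miRNA probes. Taken as already turned the order of the sets was the reverse, with medians of 0.33, 0.38 and 0.11. Centred on the miRNA median, 4 of 4 and 5 of 6 lay below 0 at both, against 31.0% of all. Centred on U6 and tRNA, 1 of 4 and 3 of 6 did, against 11.7%. Taken as already turned, 0 of 4 and 0 of 6 did, against 5.26%. In that reading 1 of 4 and 5 of 6 lay above 0 at both, against 23.98% of all.

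Relatives by seed can be set beside each other. For the seed of miR-17, 2org-17-5p had means of -0.45 at 96 h and -0.24 at 72 h, and 1org-20, listed as Mir20a, had -1.09 and -0.64. Both lay below 1org-106a and 1org-106b at both time points, and 1org-20 below all 4 paralogues. The order at 72 h was the reverse when taken as already turned, with 1org-20 at 0.60 above all 4 paralogues and 2org-17-5p at 0.36 above 1org-106a (-0.14) and 1org-106b (-0.042). miR-106a and miR-17, which differ at 1 base, had turned values of 0.671 (1org-106a) and -0.265 (2org-17-5p) at 96 h where Foxp3 was in Cy5, and of -0.871 and -0.636 where it was in Cy3. At 72 h they were at -0.215 and 0.118 (Cy5) and at 0.060 and -0.605 (Cy3), so neither was the higher at both dye orientations of a time point. For the seed of miR-92a, 1org-92 had -0.040 at 96 h and -0.12 at 72 h, above 2org-25 at both, but taken as already turned it lay below 2org-25 at 72 h (0.28 against 0.54). The differences between these probes were not tested.

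The remaining cluster members went several ways. 2org-19a, listed as Mir19a, a miRNA of another seed in the cluster, had -0.70 at 96 h and -0.29 at 72 h. 1org-18, listed as Mir18, had -0.73 at 96 h and 0.092 at 72 h. 2org-17-3p, named for the opposite arm of the miR-17 hairpin, had 1.47 and 0.18, on the other side of 0 from 2org-17-5p. Taken as already turned, 2org-17-3p was at 0.74 at 96 h and -0.78 at 72 h, and 2org-17-5p at 0.19 and 0.36. Their signs then differed at 72 h only. In that reading 2org-19a was at 0.65 and 0.038 and 1org-18 at 1.10 and 0.075, all above 0. None of the 6 passed limma, with adjusted p between 0.545 and 0.937, or between 0.0607 (1org-20) and 0.694 centred on the miRNA median. Probe 2org-106, whose ID carries no letter and which the rule therefore left out, was looked at after its values were seen. It had -0.53 at 96 h and -0.28 at 72 h, nearer to 2org-25 than to 1org-106a.

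Profiles over the 4 arrays were compared by the Euclidean distance between turned values centred on the miRNA median, as a description of these arrays, which the probes share. The closest pair among the 4 was 1org-106a and 1org-106b, from different chromosomes, at a distance of 0.179, and the widest 1org-106a and 2org-25 at 1.24. The 6 pairs had a median distance of 0.70, where all pairs of miRNA probes had 2.13. Of all pairs, 20.4% were no further apart than the widest of these 6. For 1org-106a the nearest of the 170 other probes was 1org-106b, and the reverse held too. The nearest to 1org-93 was 1org-103 (0.236) and to 2org-25 it was 1org-7d (0.337), followed by 1org-7a (0.368) and 2org-17-5p (0.412).

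Outside the 4, the probes nearest to their mean profile were 1org-103 (distance 0.251), 1org-30c (0.340), 1org-92 (0.412), 1org-7c (0.439) and 2org-107 (0.469), where the median distance of the 167 probes was 2.25. Only 1org-92 among these 5 is a member of the miR-17-92 list, and its mature sequence also comes from the X-linked cluster. The closest, 1org-103, was at -0.789 and -0.731 at 96 h and at 0.316 and -0.941 at 72 h, the same pattern of sides as the 4 paralogue probes.

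Probes for miRNAs typical of other cell types were set beside these values. Of 17 such probes (myeloid, erythroid, epithelial, muscle, neural and liver, matched by number), 17 lay above 0 at 96 h, between 0.56 and 1.93, and 12 at 72 h, with medians of 0.97 and 0.15, where 74.3% and 59.6% of all miRNA probes lay above 0. Of the numbers listed for these cell types, that of miR-451 matched no probe. The 8 probes for miRNAs of T cells had medians of 0.033 and -0.019, with 4 above 0 at each time point. Centred on the miRNA median, 15 of the 17 and 1 of the 8 lay above 0 at 96 h, against 57.9% of all miRNA probes. Centred on U6 and tRNA, all 17 were above 0 at 96 h, as were 5 of the 8 T cell probes, 3 of the 4 paralogue probes and 86.5% of all miRNA probes. Taken as already turned, 15 of these 17 had means over 0 at 96 h. So did 8 of the 8 T cell probes, 4 of the 4 paralogue probes and 94.2% of all miRNA probes. At 72 h 4 of the 17 and 4 of the 8 did, where 24.6% of all did. The part of these probes in the place of the paralogues relative to the array median was not tested.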

How the data were processed

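RNA of FoxP3-transduced and control vector-transduced activated T cells was compared on 4 2-colour arrays. The authors' deposited table gave 1 log2 ratio per probe and array (base 2 assumed) for 178 probes, 7 of them control RNAs. The scanner, background correction, normalization, direction and centring are not given in the sources used here; signal over background is unknown. Replicate numbers stand for the dye orientation (1, Foxp3 in Cy5; 2, Foxp3 in Cy3).

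Values were turned to Foxp3 over control and the 2 arrays of a time point averaged. An intercept-only limma fit (limma 3.58.1, R 4.3.3) on both averages used all 171 miRNA probes, called at a Benjamini-Hochberg adjusted p below 0.05, and had 1 residual degree of freedom. Its empirical Bayes step gave every probe a pooled standard error of 0.479 (0.378 centred on the miRNA median). No interval or p-value of this fit thus rests on a probe's own spread. The pooled probes share the 4 arrays and add no replicates. A Foxp3 by time term with a dye term was fitted over the 4 arrays. Only the intercept-only fit was tested on simulated data.

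Named probes were all members, all miR-17-92 probes and the 5 nearest profiles. Members and lists were chosen with earlier results of these data known. Alternatives were centring on the miRNA median or on U6 and 4 tRNAs, the other direction, natural logs, a 2-fold threshold, robust variance, control probes included, a dye term and each array left out. RefSeq tables (GRCm38.p6) gave the sequences.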

Additional observations from a re-analysis of the deposited data

How the results depend on the processing

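The limma count for the 4 probes was 0 under every alternative run. These included centring, the other direction, robust variance, control probes included and each array left out. A fit over the 4 arrays with a dye term, the replicate number being the dye orientation, also gave 0 calls. It counted the arrays singly, though both arrays of a time point hold the same RNAs and are 1 replicate. The count with 1 sign on all 4 arrays was also 0 in the scalings and directions run. Of all miRNA probes, 7.02% (taken as already turned) to 19.9% (also centred on the miRNA median) had 1 sign there. The count past 1.5-fold at 96 h was 0 as deposited, 4 centred on the miRNA median, 2 with the values taken as already turned, 1 with natural logs and 0 to 4 with 1 array left out. At 72 h it was 0, or 0 to 1 with 1 array left out. It was 3 at 72 h when centred on the miRNA median and taken as already turned. That combination was chosen for these counts after seeing the data. It gave 0 at 96 h and 0 for the time difference, where 17% and 20.5% of all miRNA probes were counted. The count differing between 96 h and 72 h was 0, 3 taken as already turned and 0 to 3 with 1 array left out. Centred on the miRNA median or on U6 and tRNA it was also 0, against 24% and 47.4% of all miRNA probes. The number of miR-17-92 probes below 0 at both time points was 4, 5 centred on the miRNA median, 3 centred on U6 and tRNA (also chosen after seeing the data) and 0 taken as already turned.

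The sign of the means changed as follows. Taken as already turned, the means were 0.32 for 1org-106a, 0.34 for 1org-106b, 0.26 for 1org-93 and 0.47 for 2org-25, and with centring on the miRNA median as well 0.35, 0.37, 0.30 and 0.50. Centred on U6 and tRNA, 1org-106a was at 0.057 and 1org-106b at 0.036. With 1 array left out the means ran from -0.47 to 0.30 for 1org-106a, -0.47 to 0.25 for 1org-106b, -0.57 to 0.012 for 1org-93 and -0.65 to -0.12 for 2org-25. The causes were not tested. The difference term could not be tested with 3 arrays, as no residual degrees of freedom were left. The number of arrays and the unknown direction and centring limit every value, and without intensities probes near background could not be set apart.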
